A study of Mus musculus with 16 samples.

Results

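The 44 genes described here carry out mitosis: they drive entry into it, build the spindle and the kinetochores, run the spindle checkpoint, split the cell and keep sister chromosomes in order. They were taken as a list of gene symbols, and a gene was measured when a probe of that name was detected (detection p under 0.05) on at least 2 of 16 Illumina BeadChip arrays. By that rule 35 of the 44 were measured, among 10982 genes and unnamed probes measured in all. Cenpf, a kinetochore-associated protein, and Kif20a, a kinesin of the central spindle, had no probe of that name in the platform table. The probes of Nek2 (a centrosome kinase), Bub1 (a checkpoint kinase), Cenpe (a kinetochore kinesin), Nuf2 (the partner of Ndc80), Kif11 (the kinesin that pushes spindle poles apart), Racgap1 and Ect2 (both of the machinery that places the cleavage furrow) were not detected on 2 arrays. Their raw signals stayed between 50.6 and 105.7 on all arrays, so these 7 genes carried no measured level.

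The arrays held total RNA of mouse embryonic fibroblasts (MEFs), by their labels, with 1 array for each of 16 conditions. On 8 arrays the MEFs were labelled as transformed with RasV12 and E1A, an activated Ras and an adenoviral oncoprotein. Of these, 4 were Smad1f/f (the floxed allele, titled pbabe) and 4 were Smad1-/- (titled cre), and each genotype was untreated at 0 h or given BMP2, Adriamycin (ADR, doxorubicin) or both for 12 h. The other 8 arrays carry a genotype label of non-transformed primary MEFs at passage 2, which 2 of their titles repeat, and are called primary here: untreated, BMP2, ADR or both, at 8 h and at 16 h. The doses are not settled: BMP2 is 100 ng/ml in the sample titles but 50 ng/ml in the series' design text on the transformed cells, and doxorubicin is 0.3 uM in the former but 1 ug/ml in the latter. The untreated transformed arrays were taken at 0 h, so wherever those arrays enter (a single agent against 0 h, and the interaction) the agent and 12 h of culture cannot be told apart. Since no condition had a replicate, every p-value measures departures from additive effects of agent and genotype or time, not the spread between cultures.

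Labels and genes that should follow them did not match in every respect. Smad1, the deleted gene, had log2 levels of 8.86, 8.74, 8.72 and 8.82 on the 4 arrays labelled Smad1f/f (untreated, BMP2, ADR and both) and of 8.35, 8.77, 8.92 and 9.14 on the 4 labelled Smad1-/-, and its other probe was detected on 0 of the 16 arrays. It was lower on the array labelled Smad1-/- in the untreated pair and higher in the other 3, with a change of 0.01 ± 0.12 (SE, limma adjusted p = 0.991). Whether that probe lies inside the deleted part is not given in the sources used here. BMP targets, which Smad1 helps to switch on, had a log2 change above 0 (Smad1-/- minus Smad1f/f label) in all 11 genes tested, with a median of 1.16. Of these 3 passed, Id1 by 1.45, Id3 by 1.16 and Hey1 by 0.67, against 0.127% of all features higher, and 11 had an unadjusted p under 0.05. All 17 fibroblast markers were detected on the 8 arrays labelled transformed. On the 8 labelled primary, 6 of the 17 were detected on every array and 7 on none. Col1a1, a chain of type I collagen, had a median log2 level of 12.97 (12.56 to 13.53) on the arrays labelled transformed and was undetected on those labelled primary (4.49 to 4.92). Thy1, a fibroblast surface protein, went the same way (12.76 to 13.31 against 4.57 to 5.14), and Krt18, an epithelial keratin, the opposite way (5.03 to 5.57 against 10.62 to 12.03). The epithelial list as a whole was divided: of 6 tested, 3 were lower on the arrays labelled transformed (Krt18, Esrp1 and St14) and 3 higher (Krt7 by 2.10, Krt19 and Cldn4). The agent labels were checked with target genes in both sets. On the arrays labelled primary, genes known to respond to p53, which doxorubicin activates, rose with the BMP2 label in 10 of 24 cases (Cdkn1a by 0.98 and Mdm2 by 0.72 on the log2 scale) and in 0 of 24 with the ADR label, by limma at an adjusted p under 0.05, with 2 at an unadjusted p under 0.05. Over all features 11.9% rose with the BMP2 label and 0.615% with the ADR label, so the count with ADR is near that of all features. Of 7 BMP targets, 5 rose with the ADR label (Id1 by 1.18), while 4 fell with the BMP2 label (Id1 by -0.52) and 1 rose. Changes of the 7 with the BMP2 label ran from -1.18 to 1.35, so the largest was upward. On the arrays labelled transformed the p53 targets gave 12 higher and 1 lower of 22 with BMP2 alone against 0 h (24.3% of all features were higher), and 2 higher and 1 lower of 22 with ADR alone (1.89% higher). The BMP targets there gave 3 higher and 1 lower of 11 with BMP2 alone, a share of higher calls near that of all features. With ADR alone 1 of 11 was higher and 0 lower. The 2 Smad1 labels differed in this: the median change of the BMP targets with ADR alone was -0.71 for Smad1f/f and 0.44 for Smad1-/-. With BMP2 alone it was 0.62 and 0.09. All comparisons below therefore go by the label alone.

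Mitotic genes are switched on late in the cell cycle, so their RNA is plentiful in dividing cells and scarce in arrested ones. Many are held off in resting or damaged cells by the DREAM complex, which reads a promoter element called CHR, and many are activated by NF-Y at CCAAT boxes and by the transcription factors FOXM1 and B-MYB. In bulk RNA, fewer cycling cells and less RNA per cell cannot be told apart.

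The promoters printed below show what these elements look like. They belong to the 5 genes with the largest change on adding ADR to BMP2 in the transformed set among those that had a RefSeq entry and held at least 1 of the elements, so their having one is no finding. They are 300-base windows of RefSeq on GRCm38.p6, from 250 bases before the annotated start to 50 bases after it, and 36 of the 44 genes matched by symbol. They lie at chr11:99024140-99024439 (minus strand), chr9:22389157-22389456 (minus strand), chr11:117848987-117849286 (plus strand), chr13:104228361-104228660 (plus strand) and chr17:71526808-71527107 (minus strand). For contrast the window of Spc25, at chr2:69206164-69206463 (minus strand), which moved least in that comparison, was added after its value was seen. Capitals mark TTTGAA and TTTAAA, the common spellings of CHR, and CCAAT, each searched on both strands, so TTCAAA and ATTGG are the reverse readings and TTTAAA reads the same on both.
Top2a: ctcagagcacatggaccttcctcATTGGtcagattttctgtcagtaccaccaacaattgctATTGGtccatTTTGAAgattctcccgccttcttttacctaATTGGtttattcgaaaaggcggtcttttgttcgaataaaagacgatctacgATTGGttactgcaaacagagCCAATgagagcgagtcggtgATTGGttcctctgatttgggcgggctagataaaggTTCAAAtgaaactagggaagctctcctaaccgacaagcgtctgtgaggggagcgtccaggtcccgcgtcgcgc
Anln: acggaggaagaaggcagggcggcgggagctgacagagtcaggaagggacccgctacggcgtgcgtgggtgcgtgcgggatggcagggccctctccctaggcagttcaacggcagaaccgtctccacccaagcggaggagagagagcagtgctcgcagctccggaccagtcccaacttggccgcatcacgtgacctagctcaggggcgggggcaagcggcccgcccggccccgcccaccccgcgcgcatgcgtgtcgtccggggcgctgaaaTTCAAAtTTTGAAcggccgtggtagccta
Birc5: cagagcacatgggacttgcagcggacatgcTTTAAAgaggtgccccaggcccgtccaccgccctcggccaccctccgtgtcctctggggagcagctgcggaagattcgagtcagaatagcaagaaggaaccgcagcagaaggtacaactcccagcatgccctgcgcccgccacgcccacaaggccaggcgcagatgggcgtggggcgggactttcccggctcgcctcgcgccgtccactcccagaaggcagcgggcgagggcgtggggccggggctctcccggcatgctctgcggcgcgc
Cenpk: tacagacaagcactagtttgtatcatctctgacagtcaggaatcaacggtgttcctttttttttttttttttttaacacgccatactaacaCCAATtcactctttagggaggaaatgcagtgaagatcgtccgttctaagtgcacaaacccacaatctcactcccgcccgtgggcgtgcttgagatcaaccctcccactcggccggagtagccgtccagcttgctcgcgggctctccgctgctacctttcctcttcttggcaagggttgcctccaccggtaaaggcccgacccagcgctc
Ndc80: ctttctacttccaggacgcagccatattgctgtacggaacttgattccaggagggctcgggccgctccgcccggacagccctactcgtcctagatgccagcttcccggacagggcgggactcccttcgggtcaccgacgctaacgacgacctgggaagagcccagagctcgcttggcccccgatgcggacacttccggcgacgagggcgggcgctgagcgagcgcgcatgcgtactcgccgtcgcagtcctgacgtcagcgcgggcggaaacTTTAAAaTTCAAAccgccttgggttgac
Spc25: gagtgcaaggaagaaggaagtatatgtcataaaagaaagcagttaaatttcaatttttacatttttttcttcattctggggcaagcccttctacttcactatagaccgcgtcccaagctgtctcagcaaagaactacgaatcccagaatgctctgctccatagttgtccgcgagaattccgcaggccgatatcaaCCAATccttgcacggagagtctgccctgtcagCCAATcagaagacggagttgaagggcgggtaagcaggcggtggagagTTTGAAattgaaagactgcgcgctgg
Top2a held 2 TTTGAA and 6 CCAAT matches, and Anln had 2 TTTGAA matches close together just past its start. Ndc80 had a TTTAAA and a TTTGAA match next to each other past its start, Birc5 a single TTTAAA, far upstream. Cenpk has 3 promoters in the table with 4 CCAAT matches in all, and the first window, printed here, holds 1 of them. Spc25, the member that moved least, also held 1 TTTGAA and 2 CCAAT matches. Over the 36 genes, 27 (75%) had TTTGAA in at least 1 promoter, against 20.2% of 27025 genes in the whole table. CCAAT was present in 27 (75%) against 41.1%, and TTTAAA in 8 (22.2%) against 14.9%. A promoter with CCAAT and either CHR spelling occurred in 23 genes (63.9%) against 12.2%. Of the 37 TTTGAA matches, 31 were centred within 50 bases of the start, while 40 of the 67 CCAAT matches lay further upstream than that. The promoters of Prc1 overlap each other, as do those of Ect2, so the same site can count in each window. Positions were not counted over all promoters of the table, so these counts have no background beside them. A match is a string of letters, and binding was not measured here.

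**Figure D1:**
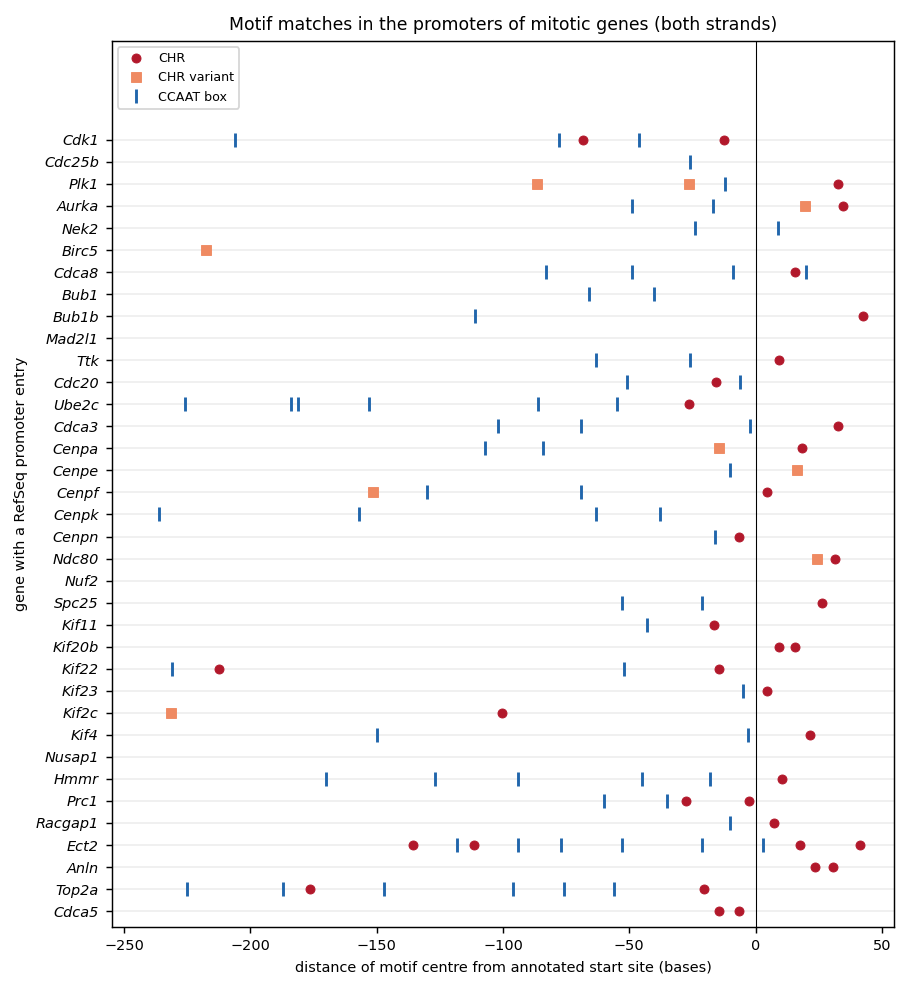
Each row is a mitotic gene with a RefSeq promoter entry, and each mark is the centre of a motif match, by its distance in bases from the annotated start (red circles TTTGAA, orange squares TTTAAA, blue bars CCAAT; genes with several promoters have all of them on their row). Of the TTTGAA matches 31 of 37 are centred within 50 bases of the start, and 40 of 67 CCAAT matches lie further upstream than that. Sites in overlapping promoters of a gene (Prc1 and Ect2) are marked once for each, and positions over all promoters were not counted.

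Adding ADR to BMP2 at 12 h in the transformed set, that is the arrays with both labels minus those with BMP2 alone, lowered nearly every mitotic gene that was measured. Of 34 tested, 31 fell and 0 rose, with a median change of -0.95 on the log2 scale, against 19.2% of all features lower and 19.8% higher and a median of -0.02. With arrays scaled only to a common median 27 fell and 0 rose. The change was below 0 in all 34 genes in the Smad1f/f pair and in 33 in the Smad1-/- pair. Every member that fell did so by limma at a Benjamini-Hochberg adjusted p under 0.05 over all 10276 features. The comparisons of this set share arrays with each other, so their values are set side by side and not counted as separate support.

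Top2a, the topoisomerase that untangles sister chromosomes and the enzyme doxorubicin poisons, moved most. In the order Smad1f/f then Smad1-/-, its log2 level was 8.73 and 9.12 untreated, 8.09 and 8.02 with BMP2, 8.72 and 8.54 with ADR, and 6.06 and 6.01 with both. The arrays with both labels lay more than 1 log2 unit below all the others. With ADR alone Top2a was level with untreated for Smad1f/f (8.72 against 8.73) and lower for Smad1-/- (8.54 against 9.12). The change on adding ADR to BMP2 was -2.02 ± 0.14 (SE, adjusted p = 7.04e-06). Cdca5 (sororin), which locks cohesin onto sister chromatids, stood at 9.81 and 9.84 with BMP2 and 9.22 and 9.24 with both, a fall of 0.60 (SE 0.08). Its untreated arrays read 9.20 and 9.20, so Cdca5 with both labels was level with the untreated pair.

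Among the kinases and phosphatases of mitotic entry all 6 that were measured fell. Pbk, a mitotic kinase, read 7.99 and 7.86 untreated, 7.06 and 7.01 with BMP2, 7.32 and 7.47 with ADR, and 5.35 and 5.31 with both. The arrays with both labels did not overlap any others, and the change was -1.70 ± 0.14 (adjusted p = 1.37e-05). Cdk1, the kinase that starts mitosis, had 10.40 and 10.30 untreated, 9.90 and 9.82 with BMP2, 9.91 and 9.96 with ADR, and 8.79 and 8.90 with both. Either single label took Cdk1 down about equally far, and both together took it to its lowest level of the 16 arrays (-1.01 ± 0.09, adjusted p = 1.88e-05). Plk1, the Polo kinase, stood at 10.35 and 10.41 with BMP2 and at 9.83 and 9.77 with both (-0.58 ± 0.08, adjusted p = 0.000309). Aurka, the centrosomal Aurora kinase, fell by 0.78 (SE 0.10). Cdc25b and Cdc25c, the phosphatases that switch Cdk1 on, changed least in this group. Cdc25b read 6.59 and 6.94 with BMP2 and 6.32 and 6.29 with both (-0.46 ± 0.15, adjusted p = 0.0342). The main probe of Cdc25c gave -0.40 ± 0.14, and its next probe detected on all arrays gave -0.08, so that call rests on 1 probe.

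The chromosomal passenger complex, which corrects wrong attachments of chromosomes to the spindle, fell as a whole: Aurkb, its kinase, Incenp, its scaffold, Birc5 (survivin) and Cdca8 (borealin). Aurkb levels were 8.56 and 8.64 untreated, 8.71 and 8.63 with BMP2, 8.38 and 8.36 with ADR, and 7.43 and 7.18 with both. The first 6 of those arrays lay within 0.4 of each other and only the last pair was low, by -1.37 ± 0.12 (adjusted p = 1.74e-05). Birc5 fell by 1.24 (SE 0.10), and its 3 probes gave -1.24, -1.30 and -1.60. Incenp fell by 0.96 and Cdca8 by 0.96. Over the 8 arrays of the transformed set Incenp ranged from 7.74 to 8.78, Birc5 from 8.77 to 10.55 and Cdca8 from 5.58 to 7.57. On the 8 labelled primary they ranged from 9.34 to 9.86, from 11.15 to 11.54 and from 7.77 to 8.53. None of the 3 overlapped between the sets.

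Of the checkpoint and protein turnover genes, 4 of 5 tested fell. Mad2l1, which holds back anaphase, fell by 1.23 (SE 0.17), and Bub1b, its partner in the checkpoint complex, by 0.64. Cdc20, the activator of the anaphase promoting complex that both restrain, fell by 0.57, with its 3 probes between -0.57 and -0.85. Cdca3, an adaptor for protein destruction at mitotic entry, fell by 0.98. Ube2c, the ubiquitin-conjugating enzyme of that complex, changed by -0.35 ± 0.17 (adjusted p = 0.147) and did not pass. Ttk, the checkpoint kinase Mps1, was detected on none of these 8 arrays and was not tested there. In the transformed set Mad2l1 ran from 6.63 to 8.42, Bub1b from 7.97 to 8.69, Cdc20 from 9.52 to 10.14, Cdca3 from 9.94 to 10.96 and Ube2c from 5.32 to 6.26. In the primary set they ran from 8.64 to 9.14, from 8.475 to 9.15, from 10.85 to 11.15, from 10.88 to 11.39 and from 6.97 to 8.31, with overlap for Bub1b and Cdca3.

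Centromere and kinetochore genes were divided. Spc24, a subunit of the NDC80 complex that grips microtubules, read 8.71 and 8.87 untreated, 8.75 and 8.60 with BMP2, 8.56 and 8.41 with ADR, and 7.30 and 7.23 with both (-1.41 ± 0.12, adjusted p = 1.48e-05). Ndc80, the subunit that names the complex, had 6.75 and 6.56 untreated, 6.56 and 6.81 with BMP2, 5.86 and 5.89 with ADR, and 5.44 and 5.75 with both (-1.09 ± 0.16, adjusted p = 0.00053). Unlike Spc24, Ndc80 was already low on both arrays with ADR alone. Spc25, of the same complex, went its own way: 8.52 and 8.38 untreated, 9.22 and 9.12 with BMP2, 8.02 and 7.78 with ADR, and 9.05 and 9.22 with both. It was high on all 4 arrays with the BMP2 label and its change on adding ADR to BMP2 was -0.03 ± 0.11 (adjusted p = 0.841). Cenpk, of the inner kinetochore, fell by 1.11 and Cenpa, the centromeric histone, by 0.49, while Cenpn, which reads Cenpa nucleosomes, changed by -0.31 ± 0.16 (adjusted p = 0.153). Cenpa read between 11.48 and 12.09 in the transformed set and between 12.78 and 13.19 in the primary set, and Cenpn between 6.73 and 7.46 and between 7.69 and 8.38, with no overlap for either.

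All 5 kinesins measured fell. Kif2c, which shortens microtubules at kinetochores, fell by 1.04, Kif4, a chromosome arm motor, by 0.95, Kif22, another such motor, by 0.94, Kif23, of the central spindle, by 0.87, and Kif20b, needed late in cell division, by 0.72. The other probe of Kif4 gave -0.45. In the transformed set Kif2c ran from 7.76 to 9.37, Kif4 from 6.94 to 8.87, Kif22 from 7.67 to 8.83 and Kif23 from 10.09 to 11.29. In the primary set they ran from 10.17 to 10.63, from 9.09 to 9.46, from 9.31 to 9.71 and from 10.49 to 11.30, with overlap for Kif23 alone of these 4. The spindle proteins fell too. Dlgap5, which bundles microtubules near the chromosomes, fell by 1.14, Tpx2, the activator of Aurka on the spindle, by 1.01, Prc1, which bundles the central spindle, by 0.95, Hmmr, of the spindle poles, by 0.57 and Nusap1 by 0.37. Tpx2 ran from 8.93 to 10.65 in the transformed and from 10.63 to 10.92 in the primary set, Prc1 from 10.58 to 11.69 and from 11.67 to 12.09, and Hmmr from 5.45 to 6.22 and from 6.25 to 7.42, so Hmmr alone of these 3 did not overlap. Anln (anillin), the scaffold of the contractile ring and the only cytokinesis gene measured, read 11.56 and 11.46 untreated, 10.77 and 10.84 with BMP2, 11.27 and 11.07 with ADR, and 9.33 and 9.31 with both. Its change was -1.48 ± 0.08 (adjusted p = 1.98e-06), and the pair with both labels lay apart from the rest. In 28 of the 34 genes measured in this set the arrays with both labels were below each of the other 6 of their set, a pattern found in 21.9% of all features tested there.

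**Figure D2:**
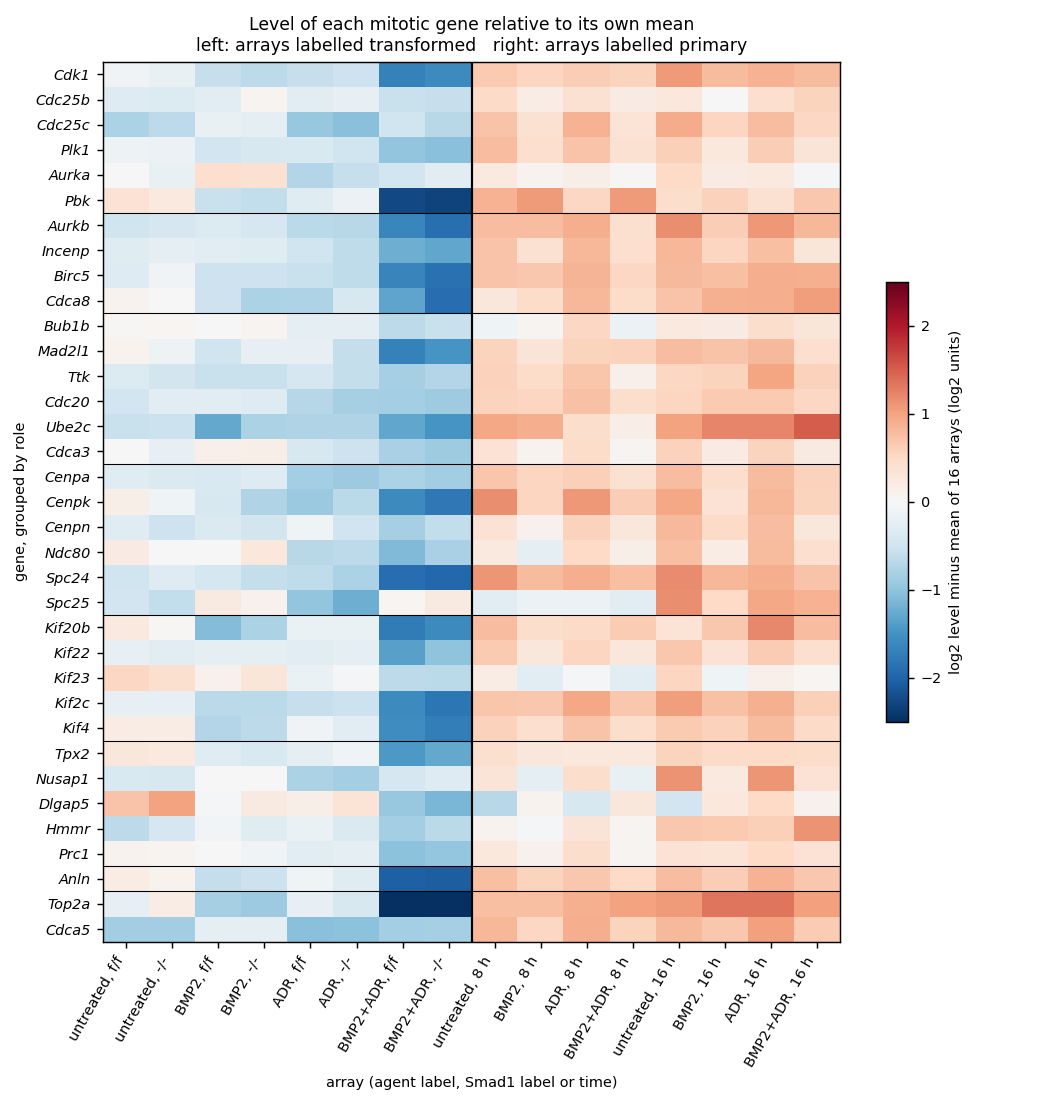
Each row is a measured mitotic gene and each column an array, coloured by the log2 level minus that gene's mean over the 16 arrays (red higher, blue lower); horizontal lines part the role groups. The columns with both labels in the transformed set are the bluest for 28 of the 34 genes measured there, and Spc25, Nusap1, Aurka, Cdc25c, Cdca5 and Cenpa are the exceptions.

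BMP2 alone against 0 h in the transformed set parted the genes in both directions. Of 34 tested, 15 fell and 6 rose (median -0.12), with 24.9% of all features lower and 24.3% higher, so the share of mitotic genes that fell was above that of all features and the share that rose below it. Kif20b changed most (-1.08 ± 0.16, adjusted p = 0.000271): it read 7.04 and 6.82 at 0 h and 5.71 and 5.99 with BMP2. Pbk (-0.89), Kif4 (-0.89) and Top2a (-0.87) followed, and Cdk1 (-0.49) and Plk1 (-0.30) fell as well. Those that rose were Spc25 (0.72), Cdca5 (0.63), Cdc25c (0.52), Aurka (0.48), Nusap1 (0.38) and Cdca3 (0.23). Aurka went from 10.02 and 9.82 to 10.42 and 10.39. Aurkb (0.07), Ndc80 (0.03) and Cdc25b (0.24) did not pass. With arrays scaled only to a common median, 21 fell and 2 rose, and Cdca3 turned to -0.08.

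ADR alone against 0 h lowered fewer of them. Of 34 tested, 12 fell and 0 rose (median -0.35), against 1.88% of all features lower and 1.89% higher. Kinetochore genes led: Cenpk changed by -0.81 ± 0.17 (adjusted p = 0.0292) from 7.84 and 7.59 to 6.77 and 7.03, and Ndc80 by -0.78 ± 0.16 (adjusted p = 0.0318). Aurka (-0.57) and Kif23 (-0.56) came next, and Spc25, Cenpa, Tpx2, Nusap1, Cdk1, Cdc20, Cdca3 and Prc1 also passed. Top2a changed by -0.30 ± 0.14 (adjusted p = 0.301), Plk1 by -0.30, Aurkb by -0.23 and Cdc25b by 0.09, and none of the 4 passed. Leaving out single arrays made calls over all features fewer, while the median change of the members stayed between -0.38 and -0.31. The count of passing members rested on single arrays. Without the untreated Smad1f/f array or without the untreated Smad1-/- array it was 0, without the Smad1f/f ADR array 1, without either BMP2 array 3, and without the Smad1-/- ADR array 5. Scaling to a common median gave 20 lower and 0 higher, where 13.7% of 556 calls over all features were higher. The authors' deposited log2 values gave 20 and 0, with 26.1% of 506 such calls higher.

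Seen the other way, BMP2 added to ADR lowered 25 of 34 and raised 4 (median -0.71), with 32.1% of all features lower and 26.8% higher. The falls of Top2a (-2.60 ± 0.14, adjusted p = 1.93e-07), Pbk (-2.06), Anln (-1.85) and Kif20b (-1.50) were the 4 largest, and Kif4 fell by 1.45. Spc25 rose by 1.23 (SE 0.11, adjusted p = 6.66e-06), Nusap1 by 0.44, Cdc25c by 0.41 and Aurka by 0.27. Ndc80 (-0.28) and Cdc25b (-0.31) did not pass, and neither did Cdca5 (0.19), Cenpa (0.05) or Cdc20 (-0.09).

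The interaction set the change on adding ADR to BMP2, within 12 h arrays, against that of ADR at 12 h over untreated at 0 h, so it also carries 12 h of culture, which cannot be told apart. It was negative for 17 of 34 and positive for 1 (median -0.54), against 11.2% and 11.9% of all features. Top2a (-1.73 ± 0.21, adjusted p = 0.000456), Pbk (-1.17), Anln (-1.14) and Aurkb (-1.13) had the largest values, and Cdk1 had -0.60. Spc25 was the single positive call (0.52 ± 0.16, adjusted p = 0.0436), where the change was -0.55 with ADR alone and -0.03 on adding ADR to BMP2. For Ndc80 (-0.31), Plk1 (-0.28) and Cdc25b (-0.55) no interaction passed. With arrays scaled to a common median 6 were negative and 1 positive, in the authors' deposited log2 values 12 and 1, and without background correction 16 and 0. With median scaling the median of all features was 0.20 instead of -0.02.

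The Smad1 label, which the Smad1 probe did not follow, went with no difference that passed. Of 34 genes, 0 were lower and 0 higher in Smad1-/- by limma (0 at an unadjusted p under 0.05, and 0 under every alternative run), against 0.00973% of all features lower and 0.127% higher. The changes ran from -0.14 (Cdca8) to 0.14 (Dlgap5), with Cenpk (-0.13) and Cenpn (-0.12) next. No member was higher, and none lower, in all 4 pairs of matched arrays. Top2a, for instance, differed by 0.02 ± 0.10.

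On the arrays labelled primary the ADR label went with no passing change. Of 35 tested, 0 fell and 0 rose by limma, with 5 at an unadjusted p under 0.05 and 0 under every alternative run, against 0.265% of all features lower and 0.615% higher. Top2a read 9.68 untreated, 9.68 with BMP2, 9.81 with ADR and 9.93 with both at 8 h, and 9.997, 10.26, 10.27 and 9.95 in the same order at 16 h. Its 8 arrays covered 0.59 log2 units, against 3.11 in the transformed set, and the ADR change was 0.08 ± 0.08. The largest changes were those of Dlgap5 (0.33), Ndc80 (0.23), Cdca8 (0.22) and Kif20b (0.21), none of which passed. Cdk1 changed by -0.05, Plk1 by -0.00, Aurkb by -0.02 and Cdc25b by 0.16. No difference of the ADR change between 16 h and 8 h passed, with 0 of 35 either way (1 at an unadjusted p under 0.05, and 0 under every alternative run), as did 0.00% of all features in each direction. Ube2c had the largest value there, 0.87 ± 0.21, followed by Kif20b (0.51), Cdc25b (0.39) and Ttk (0.36).

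The BMP2 label did go with changes on these arrays. Of 35 tested, 19 fell and 2 rose (median -0.20), against 13.1% of all features lower and 11.9% higher. Nusap1, which bundles spindle microtubules, read 10.69 untreated, 10.14 with BMP2, 10.81 with ADR and 10.17 with both at 8 h, and 11.49, 10.60, 11.46 and 10.72 at 16 h. At each time both arrays with BMP2 were below both without it, and the change was -0.70 ± 0.07 (adjusted p = 2.5e-06). Cenpk (-0.49), Ndc80 (-0.44) and Cdc25c (-0.37) also fell, as did Aurkb (-0.33) and Plk1 (-0.32). Dlgap5, a spindle protein that Aurora A phosphorylates, rose by 0.45 (SE 0.14) and Pbk by 0.29. Dlgap5 read 6.17, 6.94, 6.47 and 7.15 at 8 h and 6.38, 7.13, 7.36 and 6.97 at 16 h, so on the ADR pair at 16 h BMP2 went with a lower level. Cdk1 (-0.13), Cdc25b (-0.16) and Top2a (0.02) did not pass. Leaving out the untreated or the BMP2 array at 16 h left 13 calls instead of 21.

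With 16 h against 8 h, 12 genes rose and 1 fell of 35 (median 0.16), against 14.7% of all features higher and 19.1% lower. Spc25 rose from 8.75, 8.87, 8.86 and 8.73 at 8 h to 10.16, 9.49, 9.98 and 9.88 at 16 h, with no overlap (1.08 ± 0.10, adjusted p = 3.64e-06). Hmmr, a spindle and hyaluronan-binding protein, rose by 0.65, Ube2c by 0.62 and Nusap1 by 0.61. Top2a (0.34), Cdk1 (0.29) and Ndc80 (0.37) rose as well, while Pbk fell by 0.36. Plk1 (-0.12), Aurkb (0.21) and Cdc25b (-0.00) did not pass. Scaled to a common median 17 rose and 0 fell, and in the authors' deposited log2 values 8 rose and 2 fell.

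**Figure D3:**
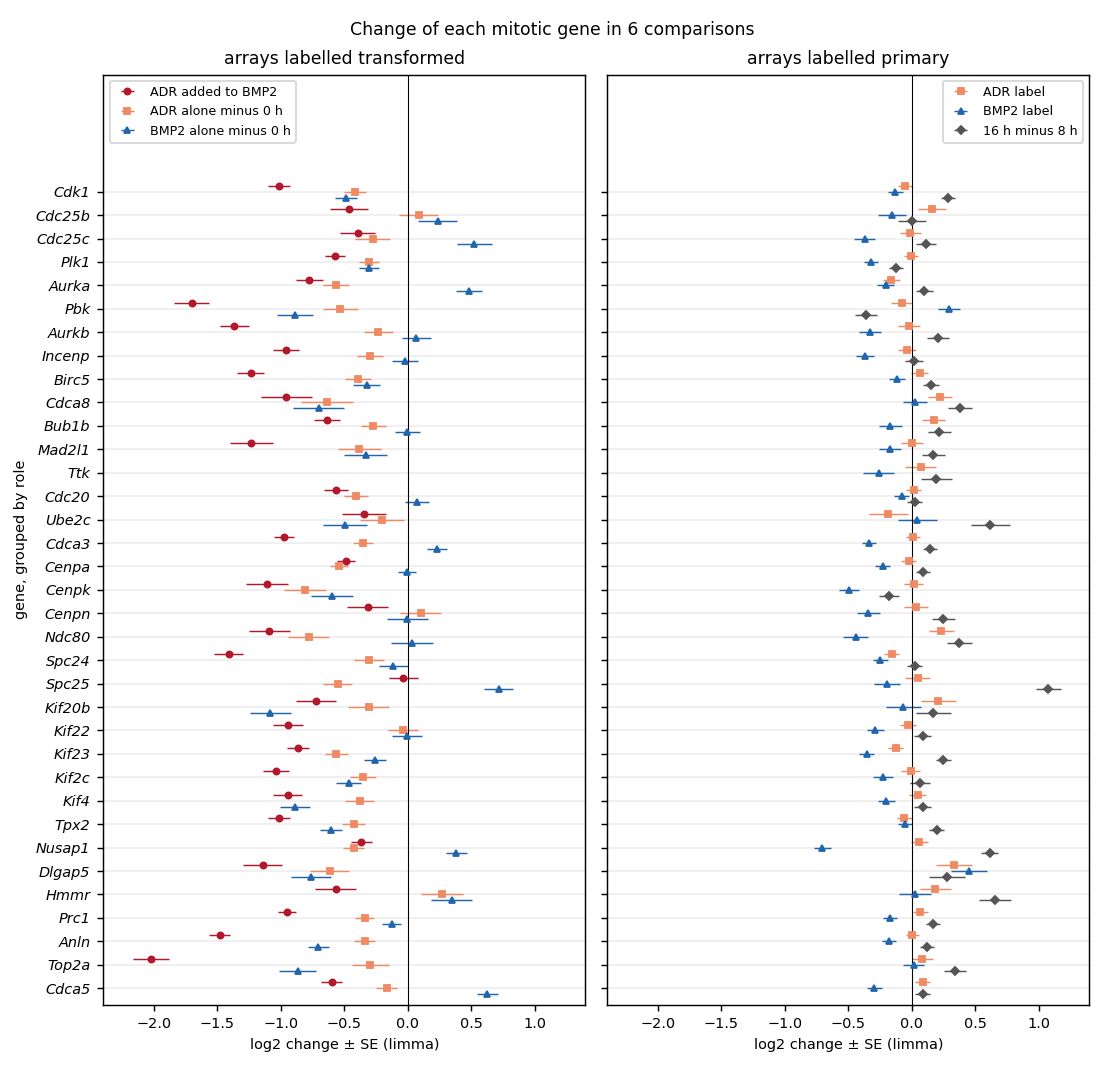
Points are log2 changes from limma and bars their standard errors, for each measured mitotic gene in 3 comparisons of the transformed set (left) and 3 of the primary set (right). Red circles, ADR added to BMP2, lie left of 0 for 31 genes that passed, while on the right the ADR squares lie near 0 and the BMP2 triangles mostly left of it.

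Between the sets the mitotic genes were lower on the arrays labelled transformed. Of 35, 33 were lower and 0 higher (median -1.16), and 32 of 34 without Ttk, which was measured in the primary set alone, against 46.1% of all features lower and 35.7% higher with a median of -0.10. In 24 of 35 genes all 8 arrays labelled transformed lay below all 8 labelled primary (23 of 34 without Ttk), against 19.6% of all features. Top2a (-2.04 ± 0.07, adjusted p = 7.45e-14), Ube2c (-1.86), Spc24 (-1.79) and Aurkb (-1.64) differed most. Aurkb had a lowest, median and highest level of 7.18, 8.47 and 8.71 on the one side and 9.46, 9.85 and 10.22 on the other, with no overlap. Cdk1 (-1.47), Plk1 (-1.02), Ndc80 (-0.70) and Cdc25b (-0.62) passed as well, with overlap between the sets for Ndc80 and Cdc25b. Kif23 (-0.05) and Dlgap5 (0.08) did not pass. Ttk, undetected in the transformed set, had a level at least 1.79-fold higher in the primary set, where its mean log2 level was 6.04. Since it was measured only there its own test value is not given, although the count of 33 of 35 includes it. The bound sets the mean of the bright arrays against the mean of a floor on the dim arrays. On each dim array that floor was the lowest level among detected probes or the gene's own level, whichever was higher. Labelled origin, cell type markers (Col1a1 and Krt18, given above), agent times and Smad1 genotype all changed with the set and cannot be told apart.

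**Figure D4:**
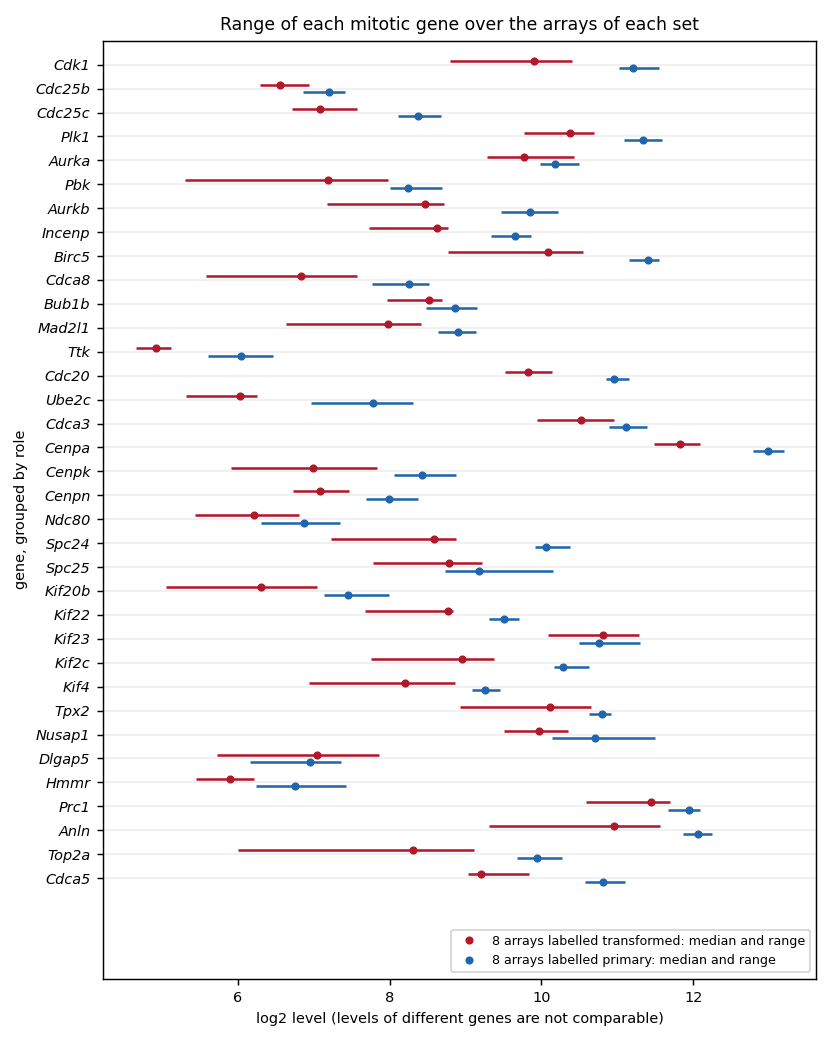
Lines span the lowest to the highest log2 level and points mark the median over the 8 arrays of each set (red transformed, blue primary), for each measured mitotic gene. The lines do not overlap for 24 of 35 genes (23 of 34 without Ttk, which was measured in the primary set alone), and the red lines are the longer ones for 31.

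The change on adding ADR to BMP2, by label, also differed between the sets. In the primary set p53 targets rose with the BMP2 label and BMP targets with the ADR label, as given above. In the transformed set, of 22 p53 targets, 12 were higher with BMP2 alone, 2 with ADR alone and 10 on adding ADR to BMP2. The times differed too (12 h against 8 h and 16 h). Agent response, labelling and time cannot be told apart here. The difference was negative for 30 of 35 and positive for 0 (median -0.93), against 11.5% and 12.1% of all features. With median scaling 25 were negative and 0 positive. Top2a (-1.99 ± 0.20, adjusted p = 4.94e-06), Pbk (-1.74), Anln (-1.48) and Ndc80 (-1.40) led, and Aurkb had -1.29, Cdk1 -1.03, Cdc25b -0.74 and Plk1 -0.59. In the primary set, adding ADR to BMP2 took the median of the genes by -0.01 at 8 h and 0.06 at 16 h, against -0.91 in each pair of the transformed set. Cdc25c, Cenpn, Spc25, Ube2c and Ttk (undetected in the transformed set) were those for which no difference passed.

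**Figure D5:**
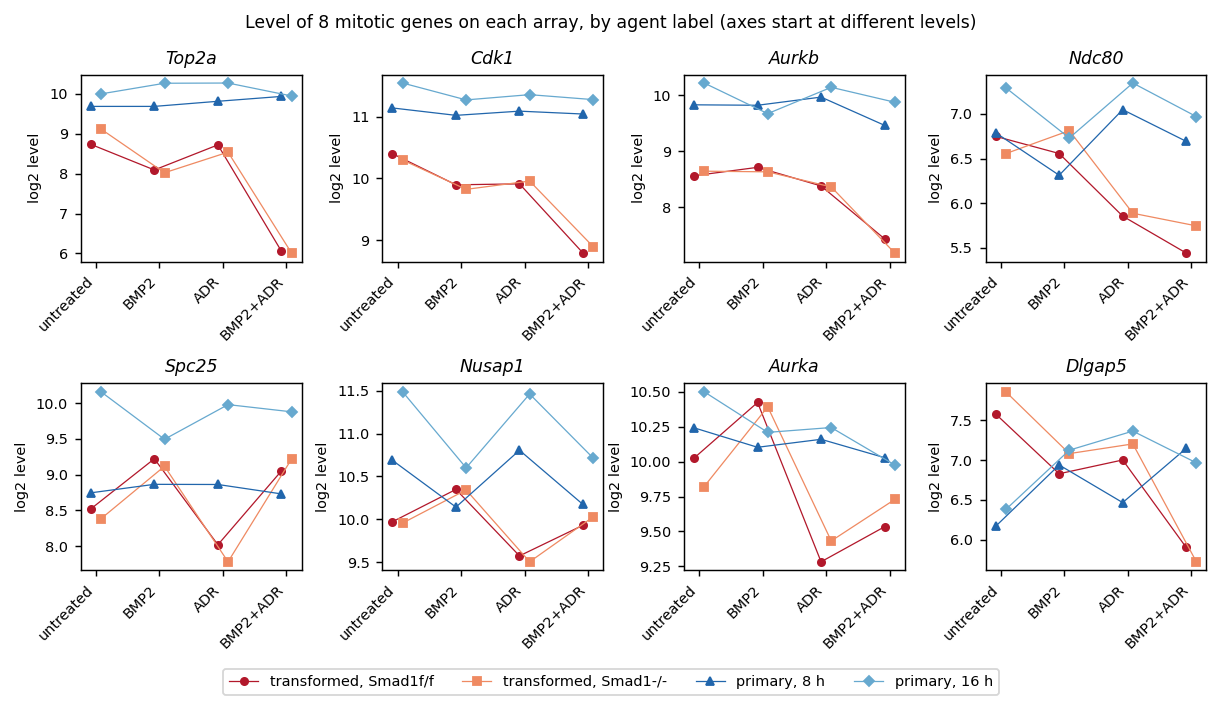
Log2 levels of 8 mitotic genes by agent label, with a line for each Smad1 label of the transformed set and each time of the primary set. Top2a, Cdk1 and Aurkb drop to their lowest with both labels in the transformed set, where Spc25 reads 9.05 and 9.22, and the 8 arrays of the primary set span 0.59 for Top2a.

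Other genes of the same processes were taken from lists, by counts in the comparison that added ADR to BMP2 in the transformed set, to be read against 19.2% of all features lower and 19.8% higher. Of 20 other kinetochore and centromere genes 12 fell and 3 rose (Kntc1 by -2.13, Pmf1 by -1.55), and of 18 other spindle and cytokinesis genes 8 fell and 1 rose (Shcbp1 by -1.72). Condensin, cohesin and separase genes gave 7 lower and 2 higher of 15 (Ncapg2 by -1.47). Anaphase promoting complex subunits gave 4 lower and 2 higher of 12, with a median of -0.01, a share of higher calls near that of all features. Of 3 mitotic cyclins and Cdk1 regulators tested, 1 fell (Cdc25a by -0.47).

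The cell cycle regulators upstream were lower too in part, with 6 of 13 lower and 1 higher. Foxm1, an activator of mitotic genes, fell by 0.88 and Mybl2, which encodes B-MYB, by 0.91. Mybl2 read 5.85 and 6.04 untreated, 6.91 and 7.10 with BMP2, 5.42 and 5.58 with ADR, and 6.25 and 5.95 with both. Replication genes, which act in S phase, moved like the mitotic ones: 20 of 22 fell and 0 rose (median -1.07), led by Tk1 (-2.22) and Mcm2 (-2.04). The p53 targets went up in 10 of 22 cases and down in 0, with Mdm2 at 0.95 and changes from -0.20 to 1.57 over the list. BMP targets gave 1 higher of 11 (Msx2 by 1.01) and 0 lower.

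Markers of other cell types were counted in the same comparison, to be read against 19.2% of all features lower and 19.8% higher. All these lists but the fibroblast one held 2 to 5 tested genes, and the part of the markers in these results was not tested. Epithelial markers gave 4 higher and 1 lower of 5 (Krt7 by 2.51), with Esrp1, a splicing factor of epithelia, detected on 0 of the 8 arrays, fibroblast markers 2 higher and 7 lower of 17 (Lum by -1.42), macrophage and blood markers 1 higher of 3 (Cd14 by 0.84), endothelial markers 1 lower of 2 (Sox18 by -0.77) and muscle markers 2 lower of 5 (Myh11 by -1.04). Between the sets, 21 of 21 kinetochore, 14 of 18 spindle, 15 of 15 condensin and cohesin and 22 of 22 replication genes of these lists were lower on the arrays labelled transformed. Of the spindle genes 3 were higher, and the anaphase promoting complex subunits were divided, with 7 lower and 3 higher of 12. There 16 of 17 fibroblast, 5 of 5 muscle, 2 of 2 endothelial, 2 of 3 macrophage and blood and 3 of 6 epithelial markers were higher, and 3 of 6 epithelial and 1 of 17 fibroblast markers lower, against 35.7% of all features higher and 46.1% lower. On the primary arrays 7 fibroblast, 4 muscle, 1 endothelial, 2 macrophage and blood and 1 epithelial markers were undetected throughout. On the transformed arrays this held for 1 epithelial marker and 1 of the 21 kinetochore genes. Such genes were measured in 1 set alone, so their direction in these counts is no separate finding. Haus1, a subunit of the augmin complex that branches spindle microtubules, was higher on the arrays labelled transformed by 2.92. With the BMP2 label in the primary set, 7 of 21 kinetochore genes were lower and 1 higher, replication genes were 3 lower and 1 higher of 22, against 13.1% of all features lower and 11.9% higher, so the share of replication genes that were lower was near that of all features. Foxm1 fell by 0.64.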

How the data were processed

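Total RNA was hybridised with Cy3 label, per the labels. The deposited signals are bead intensity values on a linear scale, neither background subtracted nor normalized, exported with GenomeStudio 2011.1 per the submitters' processing notes. In the deposited detection columns a bright probe carries 1, so they hold 1 minus the p-value named in their header, and were turned round. The authors' deposited table holds log2 values with the 75th percentile of each array and the median of each probe removed, as a comparison with the signals showed (column medians -0.139 to 0.181), and was an alternative. For the array labelled Smad1-/- with BMP2, 100% of the listed signals equal those of the Smad1f/f BMP2 array, so its signals were recovered from the log2 table, a procedure that returned 100% of the signals of the other 15 arrays.

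Of 24613 probes 20984 named 1 gene, 1 several and 3628 none, and 40.1% to 46.8% were detected on an array. Signals were normalized with limma 3.58.1 (neqc, offset 16) in R 4.3.3, probes were kept if 2 or more arrays detected them (p under 0.05), and the brightest stood for its gene. Of the members 8 had several detected probes. Contrasts were tested with limma (lmFit, eBayes with trend, two-sided, Benjamini-Hochberg over all features, adjusted p under 0.05), with 3 residual degrees of freedom within a set and 6 over both. The script was checked on simulated data, where false calls made up 2.24% (ADR change between the sets) to 12.0% (Smad1 label) of calls. Simulated log2 changes of 0.5 were recovered in 14.9% of cases for the interaction and 16.4% for ADR by time. For the ADR change between the sets it was 17.9%, so small changes could be missed in these 3 comparisons. The members, the 14 other gene lists, the 8 role groups and the tests were chosen with earlier results of these data known. Full values are given for the 4 largest passing changes of a comparison and for Cdk1, Top2a, Plk1, Aurkb, Ndc80 and Cdc25b (Bub1 and Kif11 were not detected), and for the listed genes with the largest changes besides Cdkn1a, Mdm2, Foxm1, Mybl2, Col1a1, Thy1 and Krt18. Ccnb1 was not measured, and the listed genes are not named in every comparison. Alternative settings left out the background correction, used median scaling or the deposited log2 table, dropped the detection filter or asked for detection everywhere, averaged a gene's probes, took a robust variance, fitted all arrays at once, required a log2 change of 1 or more, or omitted arrays singly. The number of arrays limits the precision. Figures were drawn with Python 3.11.15.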

Additional observations from a re-analysis of the deposited data

Results flagged for a closer look

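Agent effects that differed between groups of arrays were the reason for a second look. On the arrays labelled transformed the interaction of the ADR and BMP2 labels passed for 17 mitotic genes in the negative direction and for 1 in the positive, against 11.2% and 11.9% of all features. With median scaling 6 were negative and with the authors' deposited log2 values 12, and 1 was positive in each. The untreated arrays are at 0 h and the others at 12 h, so the interaction and 12 h of culture cannot be told apart. Top2a had -1.73 and Spc25 0.52 on the log2 scale. The effect of ADR added to BMP2, by label, differed between the transformed and the primary set, by a test of that difference, for 30 genes in the negative direction and for 0 in the positive, against 11.5% and 12.1% of all features, with -1.99 for Top2a and -1.74 for Pbk. Target genes did not follow the agent labels of the primary set. In the transformed set 2 of 22 p53 targets were higher with ADR alone, 12 with BMP2 alone and 10 on adding ADR to BMP2. In the same order 1, 1 and 0 were lower. Labelling, and times that differed between the sets, cannot be told apart from a different response. Groups of 1 array each gave no other check.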

How the results depend on the processing

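Counts of passing members kept within 1.5 times their value under most alternatives. For ADR against 0 h, leaving out any 1 array also left fewer calls over all features. A log2 change of at least 1 left 13 (ADR added to BMP2), 1 (BMP2 against 0 h), 0 (ADR against 0 h), 15 (BMP2 added to ADR) and 5 (interaction) in the transformed set, 0 (BMP2) and 1 (16 h against 8 h) in the primary set, and 21 (level, Ttk included) and 12 (ADR added to BMP2) between the sets. Median scaling gave 20 for ADR against 0 h and 7 for the interaction, the authors' log2 values 20 for ADR against 0 h, and Cdca3 turned to -0.078 for BMP2 against 0 h under median scaling. Leaving out single arrays gave 0 to 11 for ADR against 0 h and 13 to 18 for the BMP2 label in the primary set, and 27 to 31 for ADR added to BMP2. Median scaling moved the share of higher calls among all features from 50.8% to 69.7% (ADR added to BMP2), 49.4% to 27.7% (BMP2 against 0 h), 50.1% to 13.7% (ADR against 0 h), 51.7% to 86.2% (interaction), 69.9% to 84.1% (ADR label, primary), 43.5% to 74.2% (16 h against 8 h) and 51.2% to 65.5% (difference between sets). The authors' values gave 26.1%, 58.6% and 25.4% for ADR against 0 h, the ADR label and 16 h against 8 h. The median of all features was -0.19 for BMP2 against 0 h under median scaling and -0.11 for 16 h against 8 h in the authors' values. Except where the alternative itself is a stricter threshold or fewer arrays, the cause was not tested. Over single members, leaving out an array ended 249 calls, added 19 and left 3604 values on their side of the threshold. The other settings ended 227 calls, added 52, reversed 1 and left 3366. No paired analysis was possible because replicate numbers pair nothing here, each condition being 1 array with number 1. The matching of arrays by Smad1 label or by time is already a term of each fit. Slides could not enter as a block, since no slide is named. Probes near background limit the low values.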
